A study of Danio rerio with 18 samples.

Results

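Gene expression was compared between whole brains of zebrafish homozygous for the hu3528 loss-of-function allele of mfn2 (Hom, mfn2 -/-) and brains of their wild-type siblings (WT, mfn2 +/+). The comparison used the 12 libraries whose titles carry those genotypes, 6 Hom and 6 WT, out of 18 in the series. The other 6 libraries came from heterozygous siblings (Het, mfn2 +/-). They took part in the gene filter, the scaling and the shared fit with its estimate of spread, and gave a few side-by-side values. At 4 months of age the brains of 4 fish of each genotype, 2 of each sex, were pooled into 1 library per family. The 6 families each came from a single mating of a different pair of heterozygous parents, so every Hom pool has a WT pool of siblings. Siblings were sorted by genotype at 2.5 months and kept in a tank per genotype in shared recirculating water. Genotype and tank therefore cannot be told apart within a family. The submitters state that homozygous fish have lower fitness than their siblings, and the allele is present in every cell of the animal.

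Mitofusin 2, the product of mfn2, is a GTPase of the outer mitochondrial membrane that joins mitochondria to one another and also tethers them to the endoplasmic reticulum. In humans, variants of this gene cause an inherited neuropathy of long axons, Charcot-Marie-Tooth disease type 2A. Cells with disturbed mitochondria are known to switch on transcription factors of the integrated stress response, a program shared by several kinds of cell stress. Neurons depend on mitochondria that travel along axons, whose calibre is set by neurofilaments.

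Levels are given as CPM, a rate of counts per library size, after scaling by the trimmed mean of M values (TMM). Differences are log2 fold changes, Hom minus WT, with their standard error (SE). Summed levels of marker lists are the exception: they are CPM of total counts without TMM scaling, over all listed genes found, tested or not. A gene was called changed where edgeR's quasi-likelihood test with family as a block gave an adjusted p under 0.05. The adjustment was by Benjamini and Hochberg over all 20353 genes tested. Total counts ran from 21945070 to 42897654 per library. Brain markers were present in every library: the neuronal gene elavl3 lay between 231 and 387 CPM in Hom brains and between 204 and 371 CPM in WT brains. Neuronal markers did not all compare alike. Syt1 had 911 to 1284 CPM in Hom brains and 953 to 1066 CPM in WT brains. Snap25 (ENSDARG00000020609) had 2512 to 4571 CPM in Hom brains and 4645 to 5416 CPM in WT brains, without overlap. Presence of these markers therefore does not show equal neuronal content.

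A pair of labels and 1 library need care. The Hom library of family 3 stood apart from the other 11 libraries. In it 4421 of 17256 genes lay more than 2-fold from the gene's median over all 18 libraries, against 95 to 301 genes in each of those 11. Together with the Het libraries of families 1 and 3 it was left out of a second fit on 15 libraries. In family 2 the library labelled Het held 156% of the mfn2 level of the library labelled WT, which was only 75.2 CPM, and this goes against both labels. Libraries keep the names on their labels here. A further fit left out those 2 libraries of family 2, and list counts are given from all 3 fits where they differ.

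The targeted gene itself, mfn2 (ENSDARG00000079504), ranged from 25.4 to 34.1 CPM in Hom brains with a median of 28.7 CPM. In WT brains it ranged from 75.2 to 140.2 CPM with a median of 128 CPM. The groups did not overlap, and the lowest WT value was that of the library labelled WT in family 2. Within families the Hom level was 20.4% to 36.4% of the WT level, and the fall was 2.05 ± 0.17 on the log2 scale (adjusted p = 5.2e-05). The Het level was 52.2% to 66.8% of WT in the 5 families other than family 2.

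Across the brain transcriptome, 390 of the 20353 genes were called (1.92%). Of these, 304 rose in Hom brains (1.49% of genes tested) and 86 fell (0.423%). Rises were on the whole larger: their median log2 fold change was 1.13, and 187 of the 304 exceeded 2-fold and 52 exceeded 4-fold. The falls had a median of -0.89, and 34 of the 86 exceeded 2-fold and 4 exceeded 4-fold. The difference had the same sign in all 6 families for 294 of the 304 raised and for 83 of the 86 lowered genes. The Hom and WT libraries did not overlap for 190 of the raised and 58 of the lowered genes. Over all tested genes, called or not, the 6 Hom libraries lay wholly above the 6 WT libraries for 330 genes (1.62%) and wholly below them for 289 (1.42%).

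Many raised genes were close to silent in WT brains. In 71 of the 304 the mean WT level was under 1 CPM, against 1 of the 86 lowered genes, with no adjustment for gene length. In contrast, 27 of the lowered genes were above 100 CPM in WT brains, against 4 of the raised genes. The median WT level was 3.54 CPM for the raised, 48.9 CPM for the lowered and 10.6 CPM for all tested genes. A gene near 0 in WT brains can pass the filter through its Hom libraries, while a fall from there can hardly be called. The contrast at low levels is therefore partly set by the filter and the floor. The median over all tested genes was 0.04 on the log2 scale, a value that TMM scaling holds near 0.

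**Figure D1:**
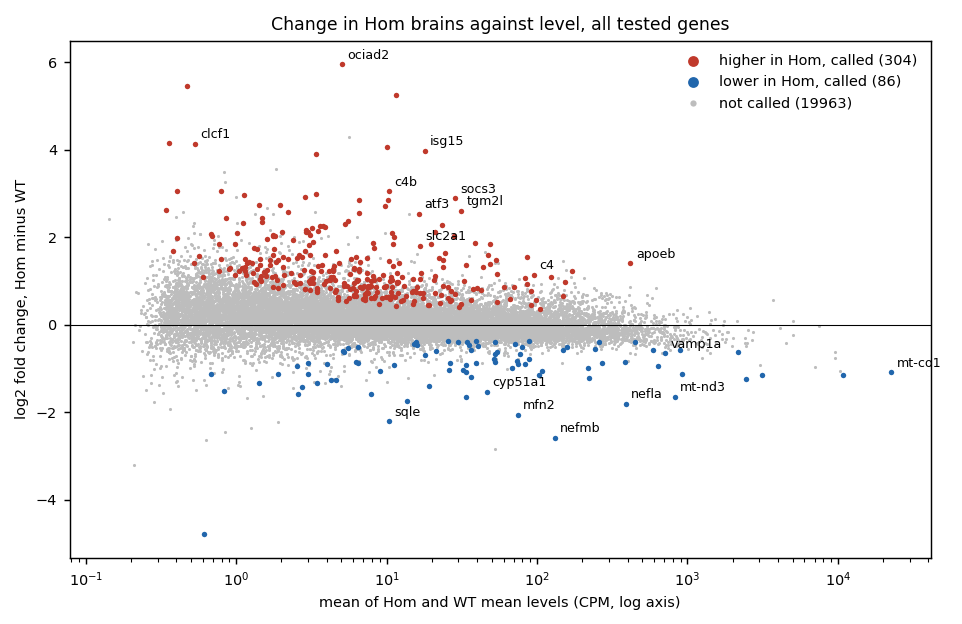
Log2 fold change (Hom minus WT) of each of the 20353 tested genes against the mean of its Hom and WT levels in CPM on a log axis. Red points are the 304 genes called higher in Hom, blue points the 86 called lower and grey points the rest. Red points gather at low and middle levels and blue points reach the right end, where mt-co1 lies.

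The number of calls depended on single libraries. It was 706 without the Hom library of family 3, 209 without that of family 4 and 208 without that of family 5. Without 1 WT library it was 214 for family 1, 245 for family 3, 199 for family 4 and 196 for family 5. The 15-library fit called 981 genes higher (4.77% of 20586) and 677 lower (3.29%), and these included 388 of the 390 calls. The fit without the 2 libraries of family 2 called 188 higher and 50 lower of 20529 genes. List counts from each fit are to be read beside these general counts, and a few calls in a long list may be near them. None of the 390 called genes changed sign in any of these fits.

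The integrated stress response, the program that cells start under amino acid shortage, mitochondrial damage or misfolded protein, had 8 raised and 0 lowered members among 39 tested. Called or not, 30 members had a log2 fold change above 0 and 9 below, with a median of 0.27. With 15 libraries the fit called 18 higher and 0 lower, and the fit without the 2 doubtful libraries of family 2 called 6 higher and 0 lower. The list's leading member was atf3 (ENSDARG00000007823), a transcription factor induced by injury and stress. It ranged from 19.1 to 38.1 CPM in Hom brains (median 28.2) and from 3.85 to 5.62 CPM in WT brains (median 4.75). Every Hom library exceeded every WT library, and the log2 fold change was 2.54 ± 0.16 (SE, adjusted p = 1.99e-05).

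Other stress regulators rose with it. Trib3, a pseudokinase induced downstream of Atf4, had 24.6 to 45.6 CPM in Hom brains (median 38.9), against 10.1 to 15.6 CPM in WT brains (median 11.4), and rose by 1.65 ± 0.15. Cebpb, a basic leucine zipper factor, had 28.0 to 40.8 CPM in Hom brains, against 14.7 to 21.4 CPM in WT brains. Both were without overlap. Its relative cebpd was 15.9 to 55.3 CPM in Hom brains, against 4.70 to 18.9 CPM in WT brains (log2 fold change 2.13 ± 0.24). For cebpd the groups overlapped through the WT library of family 6, at 18.9 CPM, and the Hom library of family 3, at 15.9 CPM.

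Smaller rises were found for 2 further members, named here after their values were seen. Sesn2, which restrains the growth kinase mTORC1, rose by 0.66 ± 0.12 (adjusted p = 0.0123). Ddit3, which encodes the stress factor Chop, rose by 0.60 ± 0.11 (adjusted p = 0.0142), with 63.7 to 85.4 CPM in Hom brains and 41.1 to 59.9 CPM in WT brains. The call of ddit3 was lost without the WT library of family 5 (adjusted p = 0.0515). Mthfd1l, an enzyme of mitochondrial one-carbon metabolism, rose by 2.12 ± 0.27, from a list of 28 serine and one-carbon genes in which it was the only call (2 higher and 1 lower with 15 libraries). The cytosolic aminoacyl-tRNA synthetases, which load amino acids onto tRNA and include known targets of this program, had 0 calls among 23 with all libraries. In the 15-library fit 6 were higher and 0 lower, and 0 were called without the 2 libraries of family 2. The endoplasmic reticulum unfolded protein response had 0 calls among 32, and 1 higher and 1 lower with 15 libraries.

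In the list of glycolysis and glucose transport 3 of 45 members rose and 0 fell, while the median was -0.14. Without the 2 libraries of family 2 the count was again 3 higher and 0 lower, and the 15-library fit called 5 higher and 11 lower. Hom and WT libraries did not overlap for 3 members that were higher and for 10 that were lower in Hom. Slc2a1 (ENSDARG00000007412), a glucose transporter known from the blood-brain barrier, had 20.9 to 37.4 CPM in Hom brains (median 24.2). In WT brains it had 6.39 to 8.37 CPM (median 7.38). All Hom libraries were higher than all WT libraries, and the rise was 1.81 ± 0.14 (adjusted p = 4.45e-05). A second slc2a1 copy, ENSDARG00000001437, was more abundant and was not called (0.48 ± 0.12, adjusted p = 0.0721). It had 78.3 to 136 CPM in Hom brains and 56.2 to 97.0 CPM in WT brains, so the groups overlapped. In the 15-library fit its log2 fold change was 0.53 (adjusted p = 0.00143). Hexokinase 2 (hk2), which traps glucose inside the cell, rose by 1.53 ± 0.19, with 7.95 to 17.9 CPM in Hom brains and 2.79 to 4.23 CPM in WT brains. Pfkfb3, which makes the activator of phosphofructokinase, rose by 0.78 ± 0.14. These were the 3 called members.

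The same list held values in the other direction. Hexokinase 1 (hk1), the form that predominates in neurons of mammals, lay between 144 and 261 CPM in Hom brains and between 289 and 311 CPM in WT brains, without overlap. Its adjusted p was 0.0699 with all libraries (log2 fold change -0.44 ± 0.11) and 0.00153 in the 15-library fit (-0.31). In that fit 5 members were called higher and 11 lower.

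A pair of further metabolic regulators rose. Igfbp1, a secreted binding protein of insulin-like growth factors, had 18.3 to 41.0 CPM in Hom brains, against 5.29 to 22.9 CPM in WT brains (log2 fold change 1.86 ± 0.20). The groups overlapped only through the WT library of family 6. Txnip (ENSDARG00000036107), an arrestin-like protein that limits glucose uptake, had 150.2 to 289 CPM in Hom brains and 82.3 to 143 CPM in WT brains, and rose by 0.98 ± 0.17. Among the hypoxia genes the calls were divided: 2 of 29 rose and 2 fell, with a list median of -0.03. The 15-library fit gave 4 higher and 3 lower, and the fit without the 2 libraries of family 2 gave 2 higher and 1 lower. The falls included egln3, a prolyl hydroxylase that marks hypoxia-inducible factor for destruction, at 1.34 to 2.34 CPM in Hom brains and 2.67 to 3.81 CPM in WT brains.

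Immediate early genes, the first to be transcribed after a signal reaches a cell, rose in Hom brains. Of 40 tested members of the AP-1 and early gene list, 12 were called higher and 0 lower, with a median log2 fold change of 0.43. The 15-library fit called 15 higher and 1 lower, and the fit without the 2 libraries of family 2 called 5 higher. Fosl1, an AP-1 subunit, had 5.75 to 13.2 CPM in Hom brains (median 8.87) and 1.07 to 2.96 CPM in WT brains (median 1.67), a rise of 2.38 ± 0.26. Fos had 54.8 to 96.8 CPM in Hom brains and 8.69 to 44.1 CPM in WT brains, a rise of 1.60 ± 0.26. Neither overlapped between groups, and the spread of fos among WT libraries was wide.

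Some regulators that feed back on such signals rose as well. Dusp1, a phosphatase of MAP kinases, had 28.6 to 44.8 CPM in Hom brains and 9.77 to 24.8 CPM in WT brains (log2 fold change 1.47 ± 0.19). Dusp2 rose by 0.82 ± 0.14. In their list of 18 genes these were the 2 rises, 1 gene fell and the median was 0.05. The fall was that of spry2, with 50.5 to 66.5 CPM in Hom brains and 72.8 to 93.5 CPM in WT brains (-0.45 ± 0.10, adjusted p = 0.0405). The 15-library fit called 2 higher and 2 lower, and the fit without the 2 libraries of family 2 called 2 higher and 0 lower. Mych (ENSDARG00000077473), a Myc family transcription factor of fish, had 24.7 to 46.3 CPM in Hom brains (median 39.9) and 6.11 to 13.6 CPM in WT brains (median 7.13). Its rise of 2.28 ± 0.18 (adjusted p = 4.74e-05) was seen without overlap, and it was the only call among 16 Myc family genes (2 higher with 15 libraries).

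Genes of cytokine signalling through Stat3 rose, among them its inhibitor. Socs3 encodes a protein that shuts off receptors of the interleukin 6 family and is itself a Stat3 target. Its copy ENSDARG00000025428 had 38.8 to 60.6 CPM in Hom brains (median 48.5), against 3.41 to 22.8 CPM in WT brains (median 6.00). The groups did not overlap, and the WT library of family 6 accounted for the highest WT value, with the other 5 at or under 7.16 CPM. The log2 fold change was 2.89 ± 0.28 (adjusted p = 0.000187). The copy ENSDARG00000026611 rose by 0.86 ± 0.13, also without overlap.

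Ligands of that receptor family were found mainly in Hom brains. Clcf1 had 0.596 to 2.02 CPM in Hom brains and at most 0.165 CPM in WT brains, of which 2 libraries held 0. Il11b had 0.452 to 0.957 CPM in Hom brains and at most 0.119 CPM in WT brains, of which 3 libraries held 0. Both were called (adjusted p = 0.00246 and 0.00959), and no fold is given because WT counts were near 0. Both passed the filter only through their Hom libraries, the group in which they were high, so the calls add little to the levels themselves. Sbno2 (ENSDARG00000016188), a regulator induced by Stat3 in mammals, rose by 1.00 ± 0.11. Of 42 genes of the Jak-Stat3 list, 9 rose and 0 fell, 14 rose and 1 fell in the 15-library fit, and 6 rose without the 2 libraries of family 2.

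Interferon response genes, which vertebrate cells use against viruses and foreign nucleic acid, rose in Hom brains. Of 59 tested members 14 were called higher and 0 lower, with a median log2 fold change of 0.66 over the list and 11 members without overlap. With 15 libraries the fit called 30 higher and 0 lower. Without the 2 libraries of family 2 it was 3 higher and 0 lower. Isg15 (ENSDARG00000086374), a ubiquitin-like modifier, had 25.7, 10.2, 27.09, 65, 35.0 and 39.3 CPM in the Hom brains of families 1 to 6. In the WT brains of the same families it had 2.02, 0.634, 1.87, 3.47, 1.92 and 2.85 CPM. Family 2 was lowest and family 4 highest in both genotypes, and every Hom library exceeded every WT library. The log2 fold change was 3.98 ± 0.27 (adjusted p = 1.99e-05).

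Other interferon-induced genes followed. Ifi27.1, whose product is mitochondrial in mammals, had 12.7 to 26.9 CPM in Hom brains and 3.04 to 5.94 CPM in WT brains (log2 fold change 2.00 ± 0.20). Xaf1, a pro-apoptotic factor, had 3.48 to 7.11 CPM in Hom brains and 0.846 to 1.62 CPM in WT brains (1.89 ± 0.22). Irf3, the transcription factor that starts interferon production, had 1.39 to 2.19 CPM in Hom brains and 0.423 to 0.924 CPM in WT brains (1.42 ± 0.26). Mov10b.2, related to an antiviral helicase, rose by 2.45 ± 0.28. Its WT level was at most 0.301 CPM, so it passed the filter through its Hom libraries. None of these overlapped between groups. Ifi27.1 and mov10b.2 belong to families of near-identical copies, so their counts are uncertain.

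Complement, the cascade of plasma proteins that tags cells for removal and in brain also tags synapses, rose in 5 of 19 tested members and fell in 0. The list median was 0.87 on the log2 scale, and the 15-library fit called 9 higher and 0 lower. Without the 2 libraries of family 2 it was 4 higher. C4b (ENSDARG00000038424), an early component, had 13 to 23.6 CPM in Hom brains (median 17.6) and 1.42 to 2.63 CPM in WT brains (median 2.34). It rose by 3.05 ± 0.32 (adjusted p = 0.00023). C4 rose by 1.14 ± 0.16, with 94.2 to 181 CPM in Hom brains and 52.0 to 67.8 CPM in WT brains.

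The late components, which form the membrane pore, rose too. C6.1 had 3.13 to 8.16 CPM in Hom brains and 0.234 to 1.18 CPM in WT brains (log2 fold change 2.93 ± 0.43). C7b had 61.8 to 98.9 CPM in Hom brains and 33.3 to 51.9 CPM in WT brains (0.86 ± 0.14). All 4 complement genes were higher in every Hom library than in every WT library.

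**Figure D2:**
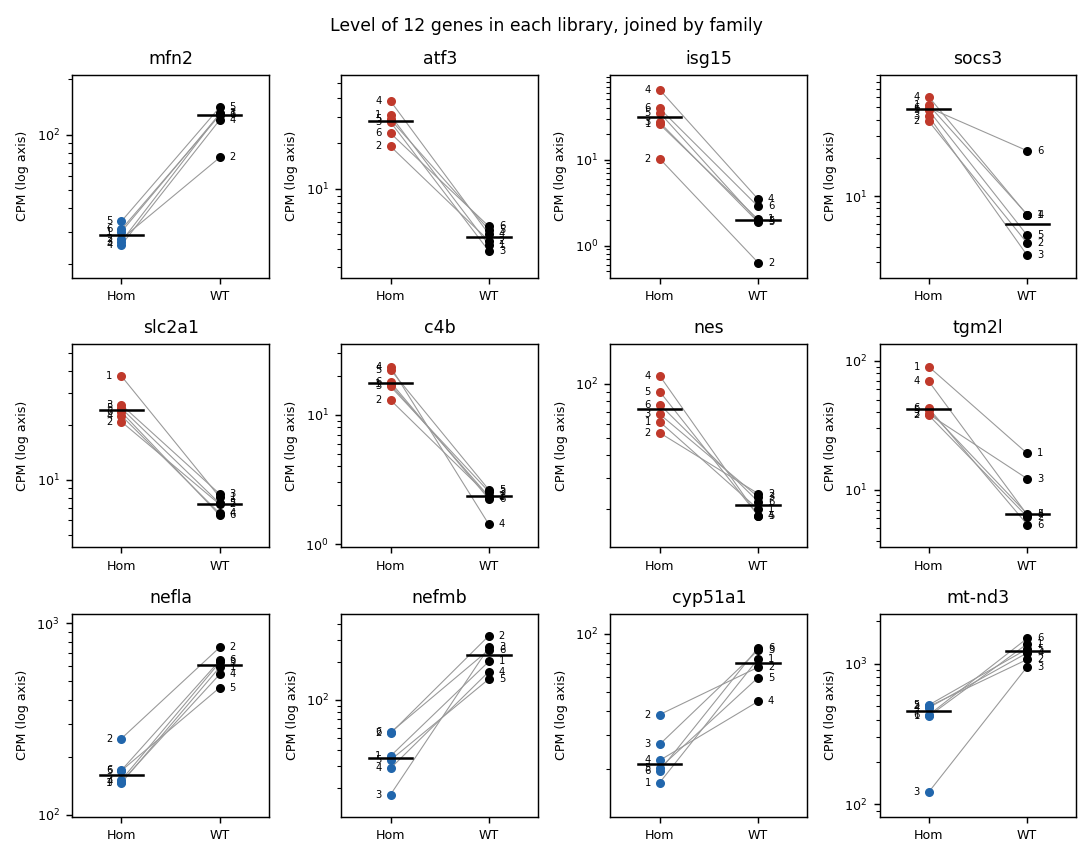
Level in CPM (log axis) of 12 genes in the 6 Hom libraries (left of each panel) and the 6 WT libraries (right), with grey lines joining the libraries of a family, numbers naming the family and bars at the medians. The socs3 panel shows ENSDARG00000025428 and the slc2a1 panel ENSDARG00000007412. In each panel all Hom points lie on 1 side of all WT points, with the family 6 WT library nearest to Hom for socs3 and the family 3 Hom library lowest for mt-nd3.

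The list of markers of microglia, the resident macrophages of the brain, and of macrophages in general had 13 called rises and 0 falls. It held 60 tested genes, with a median of 0.53. Which cells made these transcripts was not tested. The 15-library fit called 32 higher and 1 lower, and the fit without the 2 libraries of family 2 called 6 higher. The summed level of the whole list was 4918 to 5967 CPM in 5 Hom libraries, 2531 CPM in the Hom library of family 3, and 3583 to 3931 CPM in WT libraries. In bulk tissue, more cells of a type and more RNA per cell cannot be told apart, nor fewer cells and less RNA per cell. Cxcl18b, a chemokine that draws neutrophils in zebrafish, had 3.56 to 9.33 CPM in Hom brains and 1.02 to 1.57 CPM in WT brains (log2 fold change 2.26 ± 0.33). Tnfb, a tumour necrosis factor, rose by 1.60 ± 0.25 and marco, a scavenger receptor, by 1.02 ± 0.17, both without overlap.

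Of the microglia and macrophage markers described, apoeb alone was lower in Hom than in WT in family 3. Apoeb, an apolipoprotein of lipid transport, had 757.6, 543, 210.1, 672.6, 784.8 and 668.9 CPM in the Hom brains of families 1 to 6. In WT brains it ranged from 169.7 to 311 CPM with a median of 226 CPM. The Hom library of family 3 lay within the WT range and the other 5 Hom libraries above it. The log2 fold change was 1.41 ± 0.30 (adjusted p = 0.0318), and 1.63 with an adjusted p of 7.08e-05 in the 15-library fit. The call was lost on leaving out any 1 of the Hom libraries of families 1, 2, 4, 5 and 6 or of the WT libraries of families 1 to 5, with adjusted p-values between 0.0603 and 0.107. Lgals9l1, a galectin, had 32.9 CPM in the Hom library of family 3 and up to 104 CPM in the others, against 25.2 to 47.8 CPM in WT brains (1.17 ± 0.19). The 25.2 CPM was in the WT library of family 3.

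Receptors of circulating immune cells rose at low levels. Ccr9 (ENSDARG00000055186), a chemokine receptor of lymphocytes, had 3.04 to 8.24 CPM in Hom brains and 0.353 to 1.73 CPM in WT brains (log2 fold change 2.17 ± 0.27). Ccr12a had 4.46 to 6.48 CPM in Hom brains and 2.14 to 3.45 CPM in WT brains (1.04 ± 0.13). Of 29 lymphocyte markers, which include ccr9 but not ccr12a, 2 were called higher and 0 lower. With 15 libraries 5 of these markers were higher, and 1 was higher without the 2 libraries of family 2. The summed level of all 42 listed markers, tested or not, was 308 to 378 CPM in 5 Hom libraries and 1431 CPM in the family 3 Hom library. In WT libraries it was 275 to 305 CPM. No neutrophil or mast cell marker was called among 8.

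Single genes with known roles in growth arrest or DNA damage were among the rises. Rps27l, a relative of a small-subunit ribosomal protein, had 29.4 to 75.5 CPM in Hom brains (median 41.6) and 9.46 to 14.1 CPM in WT brains (median 10.8). It rose by 2.02 ± 0.22 (adjusted p = 0.000379). Gadd45g (ENSDARG00000019417), a stress sensor, rose by 1.31 ± 0.17 with 44.1 to 103 CPM in Hom brains and 21.9 to 26.9 CPM in WT brains. Gadd45b (ENSDARG00000027744) had 81.8 to 97.7 CPM in Hom brains and 37.3 to 79.7 CPM in WT brains (0.87 ± 0.11).

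Btg2, an antiproliferative factor that is also an early gene, had 57.8 to 87.9 CPM in Hom brains and 16.3 to 41.6 CPM in WT brains (1.39 ± 0.19). These 4 genes were without overlap. No cell cycle or DNA replication gene was called among 44, but 39 had a log2 fold change above 0 and 5 below, with a median of 0.22. With 15 libraries 2 were higher and 0 lower, near the general share of 4.77% called higher in that fit, and the median was 0.28. Several genes, such as atf3, apoeb and slc2a1, stand in more than 1 list, so the list counts are not independent.

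Several of the strongest rises lay outside the lists described so far. Nes encodes nestin, an intermediate filament of neural progenitors and of reactive glia and vessels. It had 53.4 to 111 CPM in Hom brains (median 72.2) and 18.5 to 24.5 CPM in WT brains (median 21.1), a rise of 1.85 ± 0.19. It was 1 of 2 called among 37 radial glia and astroglia markers, the other being apoeb. The 15-library fit called 2 higher and 1 lower, and 1 was higher without the 2 libraries of family 2. Tgm2l (ENSDARG00000093381), a transglutaminase that cross-links proteins, had 37.8 to 90.04 CPM in Hom brains and 5.35 to 19.1 CPM in WT brains (2.61 ± 0.24).

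Secreted and membrane proteins were among them. Adamts8 (ENSDARG00000007709), a metalloproteinase of the extracellular matrix, had 6.05 to 28.5 CPM in Hom brains and 1.78 to 3.04 CPM in WT brains (2.85 ± 0.30). Tspan36, a tetraspanin used as a pigment cell marker in zebrafish, rose by 1.53 ± 0.15. Ush1c, a scaffold of sensory cells, had 1.49 to 3.61 CPM in Hom brains and 0.376 to 0.589 CPM in WT brains (2.45 ± 0.24). Each of these lay wholly above WT.

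Ociad2 was close to silent in WT brains. It had 8.66, 5.57, 6.71, 18.1, 12.8 and 8.09 CPM in the Hom brains of families 1 to 6, and 0 to 0.259 CPM in WT brains with a median of 0.178 CPM. Its adjusted p was 0.000192, and no fold is given because WT counts were near 0. It passed the filter through its Hom libraries, the group in which it was high. Macc1, a transcriptional regulator of growth factor receptor signalling in human tumours, rose by 2.24 ± 0.24 and phlda2, a pleckstrin-homology protein, by 1.2 ± 0.15. Sqstm1, the autophagy receptor p62, had 126 to 264 CPM in Hom brains and 68.9 to 88.0 CPM in WT brains (1.09 ± 0.17). It was the only called member of 33 mitophagy genes, of which 2 were higher and 4 lower with 15 libraries.

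Neurofilament genes were among those that fell with the smallest p-values. These intermediate filaments fill the axon and set its width. Nefla (ENSDARG00000057568), a light chain, had 146, 250.2, 152, 149, 170.1 and 171 CPM in the Hom brains of families 1 to 6. In the WT brains of the same families it had 591, 751, 627, 543, 462 and 641 CPM. All Hom libraries were lower than all WT libraries, and the log2 fold change was -1.80 ± 0.13 (adjusted p = 3.06e-05). Nefmb (ENSDARG00000043697), a medium chain, had 17.6 to 55.0 CPM in Hom brains (median 34.4) and 147 to 324 CPM in WT brains (median 226). Its log2 fold change was -2.58 ± 0.24.

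The remaining chains fell less. Nefma had 324 to 513 CPM in Hom brains and 724 to 977 CPM in WT brains (-0.95 ± 0.12). Nefl had 31.1 to 82.0 CPM in Hom brains and 95.8 to 187 CPM in WT brains (-1.15 ± 0.20). Those 4 were the called members of the 24 neurofilament and neuronal intermediate filament genes tested, 0 rose, and the median was -0.28. Without the 2 libraries of family 2 the count was 4 lower, and in the 15-library fit 10 lower. Neff1, a further neuronal intermediate filament gene outside the list, fell by 0.67 ± 0.11 on the log2 scale.

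Other genes of axons and nerve terminals fell. Hapln2, a link protein of the matrix at nodes of Ranvier, had 2.48 to 11.3 CPM in Hom brains (median 6.04) and 15 to 28.5 CPM in WT brains (median 20.1), a log2 fold change of -1.75 ± 0.25. Vamp1a, the vesicle protein synaptobrevin, had 438 to 629.6 CPM in Hom brains and 810.4 to 988 CPM in WT brains (-0.65 ± 0.10). Fxyd7, a brain modulator of the sodium pump, had 47.7 to 66.1 CPM in Hom brains and 96.3 to 129 CPM in WT brains (-0.91 ± 0.11). None of the 3 overlapped between groups. Of 29 sodium pump genes, fxyd7 was the 1 called lower and fxyd5 the 1 called higher (1.37 ± 0.26, adjusted p = 0.0183, with overlap). The 15-library fit called 1 higher and 10 lower in that list, and the fit without the 2 libraries of family 2 called 0 higher and 1 lower. The myelin and oligodendrocyte markers, whose cells border the nodes, had 1 call in each direction among 28. With 15 libraries 3 were higher and 2 lower, and 0 were called without the 2 libraries of family 2.

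Calcium-binding proteins of neuron subtypes were lower as well. Cabp5a, a calmodulin relative, had 1.5 to 3.97 CPM in Hom brains and 4.15 to 9.45 CPM in WT brains (-1.25 ± 0.15). Calb2b, which encodes calretinin, had 22.4 to 47.2 CPM in Hom brains and 58.4 to 79.4 CPM in WT brains (-0.86 ± 0.14). These were the 2 called of 55 calcium-binding genes, of which 0 rose. In the 15-library fit 14 calcium-binding genes were lower and 1 higher, and without the 2 libraries of family 2 there were 2 lower. In the synaptic vesicle list 2 of 66 fell and 0 rose, 12 were lower with 15 libraries and 1 without those of family 2. In the neuropeptide list 2 of 64 fell and 0 rose, 12 were lower with 15 libraries and 0 without those of family 2. Among 59 markers of glutamate neurons and fast receptors 0 were called, and 3 were lower with 15 libraries.

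Eef1a2, the translation elongation factor of neurons and muscle, had 56.1 to 89.3 CPM in Hom brains and 124 to 166 CPM in WT brains (-1.05 ± 0.12). The main pump subunit of neurons, atp1a3b, had 644 to 1180 CPM in Hom brains and 1422 to 1826 CPM in WT brains. These groups did not overlap, yet its adjusted p was 0.0648 with all libraries and 0.00119 in the 15-library fit. Falls outside these groups included tmprss4b, a membrane serine protease (-1.40 ± 0.14), and metap2a, an aminopeptidase (-0.86 ± 0.14). Popdc2, a cAMP-binding Popeye protein, fell as well (-0.92 ± 0.14), with overlap between Hom and WT libraries. Metap2a was even across Hom brains, at 4.24 to 4.68 CPM, and ranged from 6.63 to 11.1 CPM in WT brains.

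**Figure D3:**
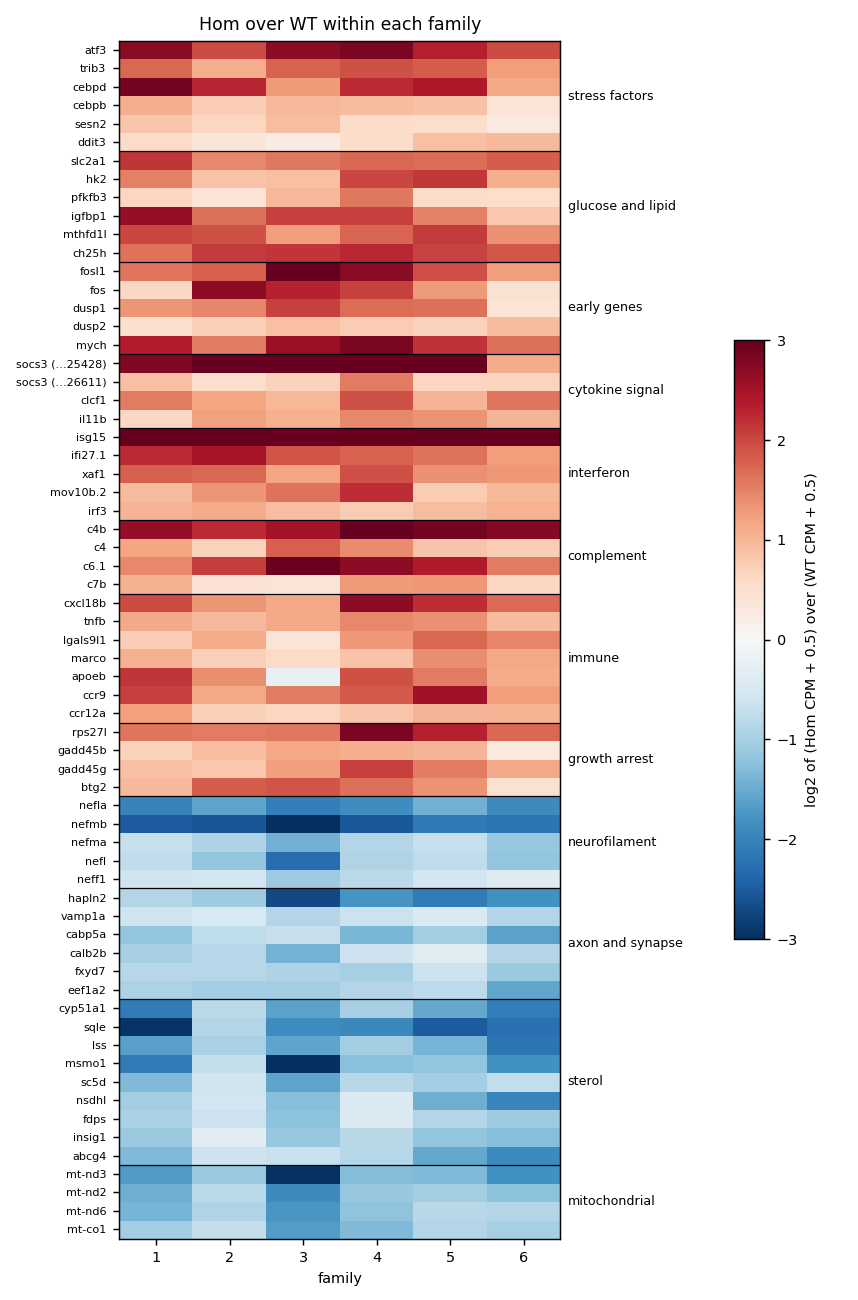
Log2 of the Hom over the WT level within each family (colour, with 0.5 CPM added to both) for a selection of the genes described. Rows are genes grouped by role, and columns are the 6 families. Red is higher and blue lower in Hom, and colours stop at 3 in either direction. Apart from apoeb in family 3, the rows drawn keep 1 colour across families, with paler rises in family 6 for socs3 (ENSDARG00000025428), cebpd, dusp1 and igfbp1. Mt-nd5, which was higher in Hom in family 3, is not drawn.

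Several genes of cholesterol synthesis fell, and fdps is the only enzyme before squalene described here. Brain cells make their own cholesterol, in a chain of enzymes from acetyl units through squalene and lanosterol. Of 40 tested genes of synthesis and uptake, 12 were called lower and 0 higher, with a median of -0.30. Called or not, 26 had a log2 fold change below 0 and 14 above. The count was again 12 lower and 0 higher without the 2 libraries of family 2, and the 15-library fit called 19 lower and 2 higher. Early in the chain, fdps, which makes farnesyl units, had 20.7 to 34.9 CPM in Hom brains and 41.9 to 60.5 CPM in WT brains (-0.88 ± 0.13). Squalene epoxidase, sqle (ENSDARG00000079946), had 1.64 to 7.95 CPM in Hom brains and 7.72 to 23.6 CPM in WT brains (-2.21 ± 0.25). The sqle groups overlapped through the Hom library of family 2 and the WT library of family 4.

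The steps that close and trim the ring system fell in the same way. Lanosterol synthase, lss, had 2.91 to 6.91 CPM in Hom brains and 7.33 to 17.4 CPM in WT brains (-1.57 ± 0.18). Cyp51a1 (ENSDARG00000042641), the lanosterol demethylase, had 17 to 38.2 CPM in Hom brains (median 21.2) and 44.7 to 84.7 CPM in WT brains (median 70.7), a log2 fold change of -1.53 ± 0.17 (adjusted p = 0.00049). Msmo1 fell by 1.66 ± 0.28, nsdhl by 1.32 ± 0.23 and sc5d by 1.05 ± 0.15 on the log2 scale. Of these, nsdhl overlapped between groups, with up to 2.86 CPM in Hom brains and from 2.41 CPM in WT brains. In 6 of the 7 enzymes named, all but msmo1, the highest Hom value was that of family 2.

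Genes that answer to sterol levels moved beside the enzymes. Insig1, which holds the sterol sensor in the endoplasmic reticulum and is itself induced when sterols are scarce, had 37.2 to 62.5 CPM in Hom brains and 66.7 to 106 CPM in WT brains (-0.98 ± 0.13). Abcg4 (ENSDARG00000078068), a sterol exporter of neurons and glia, fell by 1.42 ± 0.22, with overlap between groups. Ch25h, which turns cholesterol into 25-hydroxycholesterol, went the other way, with 6.94 to 10.7 CPM in Hom brains and 1.25 to 2.53 CPM in WT brains (2.3 ± 0.25). Fatty acid synthesis and desaturation, a neighbouring pathway, had 1 rise and 0 falls called among 25 genes, with a median of -0.18. The 15-library fit called 2 higher and 6 lower, and the fit without the 2 libraries of family 2 called 0.

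**Figure D4:**
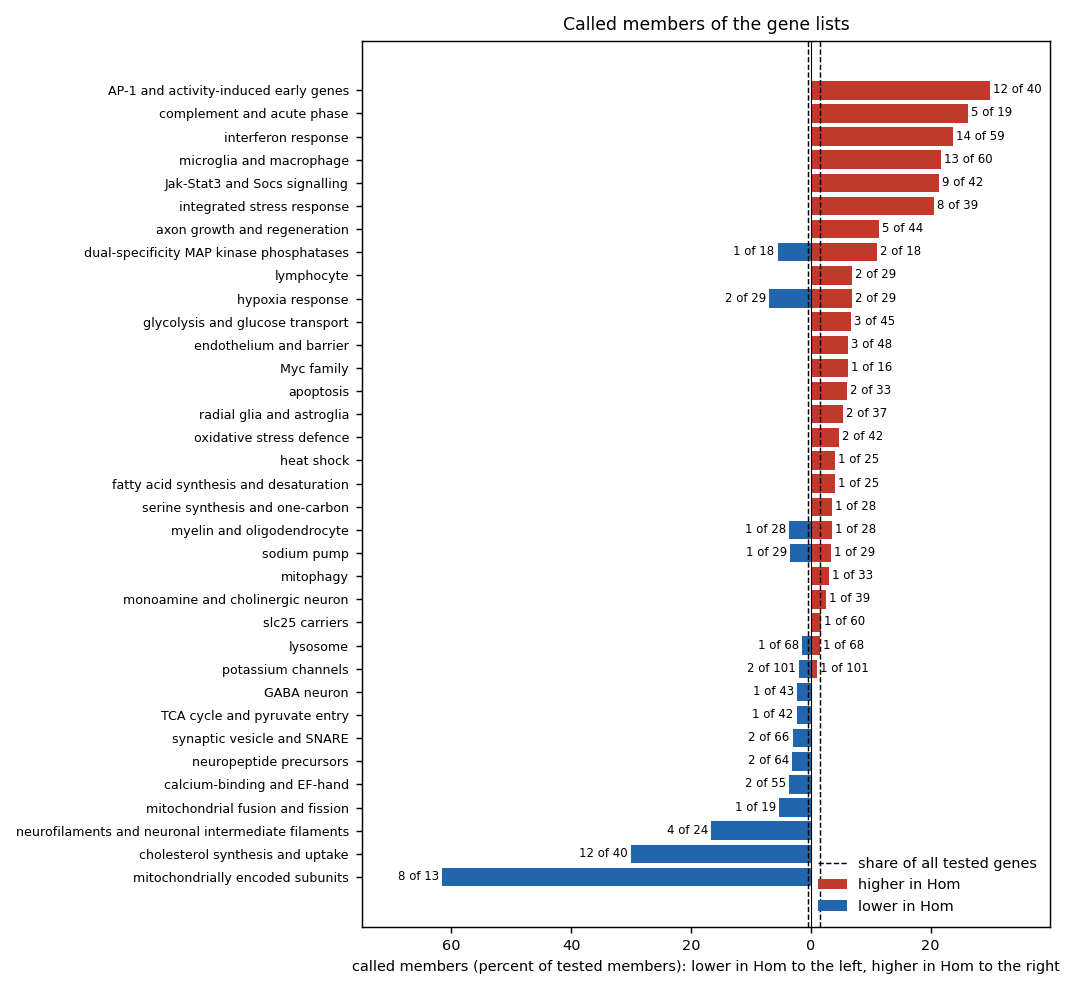
Percent of the tested members of each gene list that were called lower (blue, left) or higher (red, right) in Hom, for 35 of the 36 lists with a call, with counts at the bars (1 list is not shown). Dashed lines mark the shares over all tested genes, 0.423% lower and 1.49% higher. The longest red bar is that of early genes (12 of 40) and the longest blue bar that of mitochondrially encoded subunits (8 of 13).

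Transcripts of the mitochondrial DNA itself fell. This small genome encodes 13 core subunits of the respiratory chain. The shares given here cover the genes of these 13 subunits only. Counts from them made up 5.88%, 6.19%, 1.93%, 5.18%, 5.76% and 6.08% of all counts in the Hom brains of families 1 to 6. In the WT brains of the same families they made up 10.5%, 9.18%, 8.68%, 9.96%, 9.37% and 9.50%. The Hom library of family 3 was far below the other 5, which were still lower than every WT library. Within families the log2 ratio averaged -0.98 with an SD of 0.60, lower in 6 of 6, with an exact two-sided permutation p of 0.0312, the smallest that 6 families allow. Without family 3 the mean was -0.74 with an SD of 0.15 in 5 families, where the smallest possible p is 0.0625.

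Of the 13 subunits, 8 fell and 0 rose, with a median of -1.05. The 15-library fit called all 13 lower, and the fit without the 2 libraries of family 2 called 5. Mt-nd3 (ENSDARG00000063914), a subunit of complex I, had 122 to 508 CPM in Hom brains (median 459) and 951 to 1514 CPM in WT brains (median 1233), a log2 fold change of -1.64 ± 0.23. Mt-nd2 had 781 to 1818 CPM in Hom brains and 2958 to 3955 CPM in WT brains (-1.23 ± 0.18). Mt-co1, the catalytic subunit of complex IV, had 8582 to 17960 CPM in Hom brains and 27220 to 34330 CPM in WT brains (-1.08 ± 0.18). Mt-nd6, encoded on the opposite strand from most, fell by 1.13 ± 0.20 on the log2 scale. The lowest value of each of these 4 was in the Hom library of family 3, and none of the 4 overlapped between groups.

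Mt-nd5 differed from them. It had 1377, 1705, 2671, 1524, 1702 and 1405 CPM in the Hom brains of families 1 to 6. In the WT brains of the same families it had 2537, 2534, 2517, 2996, 2922 and 2236 CPM. In family 3 the Hom library was the highest of the Hom libraries and above the WT library of its family, so the groups overlapped, and Hom was lower in 5 of 6 families. The log2 fold change was -0.63 ± 0.14 (adjusted p = 0.0377), and -0.77 with an adjusted p of 4.77e-05 with 15 libraries. The call was lost on leaving out any 1 of the Hom libraries of families 1, 2, 4, 5 and 6 or of the WT libraries of families 1, 2, 4, 5 and 6, with adjusted p-values between 0.0835 and 0.143.

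**Figure D5:**
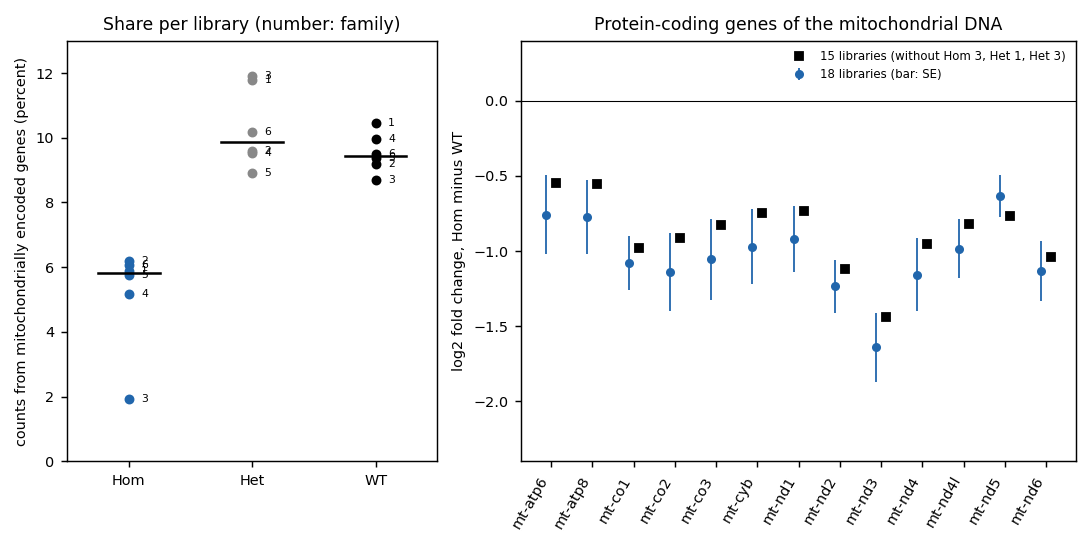
Left, percent of all counts that came from the 13 protein-coding genes of the mitochondrial DNA in each library. Numbers name the family and bars the medians. Hom libraries lay at 1.93% to 6.19% and WT libraries at 8.68% to 10.5%. Right, log2 fold change of the 13 protein-coding genes in the 18-library fit (circles, bars are SE) and in the 15-library fit (squares), all below 0.

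Nuclear genes for the same respiratory complexes were not called, but nearly all had log2 fold changes below 0. Among 40 nuclear complex I subunits 0 were called, all 40 were below 0 and 2 lay wholly below WT. Their median was -0.36, and the 15-library fit called 9 lower with a median of -0.20. Among 49 subunits of complexes III, IV and the ATP synthase 0 were called, 48 were below 0 and 7 lay wholly below WT. Their median was -0.31, and 7 were lower in the 15-library fit. Of all tested genes 0.423% were called lower, so 0 calls in lists of this size is near that share. The other 2 measures lay above their general shares. Of all tested genes 1.42% lay wholly below WT, against 2 of 40 and 7 of 49 here. The 15-library fit called 3.29% of all genes lower, against 9 of 40 and 7 of 49 here. Ndufa4b, counted in the complex I list by its name although its product is now placed in complex IV, had 142 to 426 CPM in Hom brains and 444 to 634 CPM in WT brains (adjusted p = 0.107). Atp5f1b, the catalytic subunit of ATP synthase, had 738 to 1269 CPM in Hom brains and 1323 to 1625 CPM in WT brains (adjusted p = 0.0958). Neither gene overlapped between groups, and both were lowest in the Hom library of family 3.

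The partners of mitofusin 2 in shaping mitochondria showed no call. Of 19 genes of fusion and fission, mfn2 was the only one called. Dnm1l, the GTPase that divides mitochondria, had 101 to 134 CPM in Hom brains and 139.7 to 154 CPM in WT brains (log2 fold change -0.28 ± 0.09, adjusted p = 0.137). Opa1, which fuses inner membranes and is named after its values were seen, had 62.5 to 133 CPM in Hom brains and 130.3 to 157 CPM in WT brains (-0.32 ± 0.15, adjusted p = 0.373). In the 15-library fit both had an adjusted p of 0.0327, and 5 of the list were lower.

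In all, 23 of the 59 lists had no called member with all libraries and 5 in the 15-library fit. Among those with 0 calls were the mitochondrial ribosomal proteins (77 tested, median -0.26), the cytosolic ribosomal proteins (76, median -0.12), and the kinesin, dynein and mitochondrial trafficking genes (76, median 0.07). The circadian clock (39, median 0.03), mitochondrial import (49, median -0.16), mitochondrial chaperones and proteases (23, median -0.03) and the proteasome (50, median -0.22) had none either. These 7 lists also had 0 calls without the 2 libraries of family 2. In the 15-library fit 3 mitochondrial ribosomal proteins and 4 import genes were lower, and 1 cytosolic ribosomal protein and 4 clock genes were higher. That fit also called 1 trafficking gene higher and 5 lower, 1 mitochondrial chaperone or protease in each direction, and 5 proteasome genes higher and 1 lower. Over all tested genes that fit called 4.77% higher and 3.29% lower. The 3 of 77 mitochondrial ribosomal proteins and the 1 of 23 chaperones and proteases in each direction are near those shares. Several of these medians rested on the Hom library of family 3: the family medians of cytosolic ribosomal proteins ran from -1.49 to 0.18, and the list's median was 0.09 in the 15-library fit. Markers of cells from outside the brain were not called, with 0 of 30 skeletal muscle, 0 of 12 erythrocyte, 0 of 28 photoreceptor and retina and 0 of 12 oocyte genes. Of the 12 oocyte genes 11 had a log2 fold change above 0, with a median of 0.56, and 1 was called higher with 15 libraries. The summed level of the oocyte list was 133 to 174 CPM in 5 Hom libraries and 304 CPM in the family 3 Hom library. In WT libraries it was 67.5 to 109 CPM, without overlap. A single listed gene, h1-10, had 113 to 148 CPM in those 5 Hom libraries after TMM scaling. It had 54.2 CPM in the family 3 Hom library and 59.0 to 101 CPM in WT libraries, and was not called. Outside the family 3 Hom library most of the sum was therefore this 1 gene. Of the erythrocyte genes 2 were lower with 15 libraries. Endothelial markers had 3 of 48 called higher, 10 with 15 libraries and 2 without the 2 libraries of family 2. The summed level of all 49 listed was 1220 to 1459 CPM in 5 Hom libraries and 2416 CPM in the family 3 Hom library. In WT libraries it was 1066 to 1248 CPM. The part of these cell types in the results was not tested.

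The heterozygous brains of the same families give a scale for these changes. Atf3 averaged 27.9 ± 6.5 CPM in Hom, 5.32 ± 1.01 CPM in Het and 4.76 ± 0.68 CPM in WT brains (SD, n = 6 each). Nefla averaged 173 ± 39.3 CPM in Hom, 646 ± 155 CPM in Het and 603 ± 97.3 CPM in WT brains. Cyp51a1 averaged 24 ± 7.70 CPM in Hom, 68.8 ± 16.2 CPM in Het and 68.7 ± 15.1 CPM in WT brains. For the 304 genes raised in Hom the median Het minus WT difference was 0.17, and for the 86 lowered genes it was 0.07, on the log2 scale. The same edgeR test called 0 genes between Het and WT, with 524 at an unadjusted p under 0.05. Both comparisons share the WT libraries. Even mfn2 was not called in that test (log2 fold change -0.54, adjusted p = 0.903), although its Het level was lower in every family but family 2. The Het libraries of families 1 and 3 stood apart, and the Het and WT labels of family 2 are doubtful. An absence of calls therefore does not show that Het brains were like WT brains.

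Linkage to the mutated locus was looked at through chromosome 8, which carries mfn2. Of the 605 other tested genes placed there, 17 were called (2.81%), 14 higher and 3 lower, against 1.93% of 13237 genes on other chromosomes. Of the 30 tested genes nearest to mfn2, 15 on each side, the only call was pimr185, named here after its value was seen, at a log2 fold change of 2.05 (adjusted p = 0.0152).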

How the data were processed

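The deposited table holds whole-number counts per gene, with no normalization, for 32057 genes in 18 libraries. Per the labels' protocols the libraries came from polyadenylated RNA. Per the submitters' processing notes, STAR 2.7.0a, featureCounts of Subread 1.5.2 and the build GRCz11 were used. No source used here gives the strand setting, the annotation release or the treatment of reads with several matches, so overlapping genes and near-identical copies are uncertain. Symbols came from a table that named 28988 IDs. Chromosomes and gene neighbours came from RefSeq (assembly GRCz12tu), matched by symbol.

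Genes were kept by edgeR's filterByExpr (minimum count 10, total 15). EdgeR 4.0.16 in R 4.3.3 fitted genotype and family over all 18 libraries with TMM scaling and a prior count of 0.125, tested on simulated data first. SE is the log2 fold change over the root of F. Genes with a Benjamini-Hochberg adjusted p-value under 0.05 were called. The share of counts from the 13 protein-coding mitochondrial genes was tested by an exact sign-flip permutation over families. P-values measure the spread between pools, each from separate animals.

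Family is a block because the labels give each family as 1 mating. Same-family Hom and WT libraries deviated together, with correlations of 0.164 to 0.424 in the 6 pairs and a median of -0.08 over 30 other pairs. No 2 libraries of a group agreed within sampling noise: the lowest chi-square per degree of freedom was 19.4.

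Genes named are mfn2, the 30 of smallest p in each direction with a gene name and the same sign in at least 5 families, the 10 of largest fold, the 5 of highest level and the 4 of smallest p in each list. Exceptions are marked, names were left out, and some genes the rule takes are not reported here. The members and all lists were chosen with earlier results of these data known. Alternatives were RLE scaling, DESeq2 1.42.0, limma 3.58.1 (voom with quality weights), other filters, a prior count of 2, no block, Hom and WT libraries only, and leaving libraries out.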

Additional observations from a re-analysis of the deposited data

Results flagged for a closer look

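Within each genotype the highest or lowest of the 6 libraries was set apart from the rest by Dixon's criterion in 27 of 178 cases examined, where chance gives about 1 in 20. No explanation was tested for any of them.

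The Hom library of family 3 gave 9 of these. It was low for mt-nd3 (122 CPM, other Hom libraries 423 to 508), mt-nd6 (302 CPM, others 580.2 to 682), hk1 (144 CPM, others 219 to 261), atp5f1b (738 CPM, others 1169 to 1269), ndufa4b (142 CPM, others 354 to 426) and opa1 (62.5 CPM, others 123 to 133). Its mitochondrially encoded share was 1.93%, with 5.18% to 6.19% in the others. It was high instead for tmprss4b, at 15.3 CPM, with 8.46 to 10.4 CPM in the others, and for mt-nd5, at 2671 CPM, with 1377 to 1705 CPM in the others.

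The WT library of family 6 gave 7, all on the high side. These were socs3 (ENSDARG00000025428) at 22.8 CPM, igfbp1 at 22.9 CPM, cebpd at 18.9 CPM, dusp1 at 24.8 CPM, mych at 13.6 CPM, trib3 at 15.6 CPM and vamp1a at 988 CPM. In the other WT libraries the first 6 reached at most 7.16, 9.18, 7.16, 13.9, 8.27 and 11.7 CPM, and vamp1a 871 CPM. The first 6 are genes that rose in Hom brains, and vamp1a is one that fell.

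The Hom library of family 2 was nearest to WT for nefla (250.2 CPM), lss (6.91 CPM) and insig1 (62.5 CPM). The Hom library of family 4 was high for fos (96.8 CPM) and clcf1 (2.02 CPM), that of family 1 for slc2a1 (ENSDARG00000007412, 37.4 CPM) and ccr9 (8.24 CPM), and that of family 6 for dusp2 (10 CPM). In WT libraries, mfn2 was low in family 2 (75.2 CPM), c4b low in family 4 (1.42 CPM) and sbno2 high in family 1 (9.29 CPM).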

How the results depend on the processing

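The alternatives were followed for 88 of the genes named, of which 82 were called. Spry2, fxyd5 and pimr185 were not among them. Of the 82, 64 kept the call under every alternative run and 79 kept it when any single library was left out. Most were chosen for small p in these same data, so these counts do not describe all 390 calls. Without the WT library of family 5, for one, 190 of the 390 were kept. Of the 88, 0 changed sign where called. Against 390 calls (304 higher, 86 lower), DESeq2 called 1054 (688 and 366) and limma with quality weights 2072 (1288 and 784), so the share called higher was 65.3% and 62.2%, against 77.9%. With Hom and WT libraries only there were 202 calls (159 and 43), and 7 of the named genes lost theirs. Without the 3 libraries that stand apart there were 1658 (981 and 677), without the libraries labelled WT and Het of family 2 there were 238 (188 and 50), and without all of these, an alternative chosen after seeing the data, 1215 (807 and 408). Leaving out 1 family gave 142 to 716 calls, 106 to 514 higher and 33 to 202 lower. Leaving out 1 library gave 196 to 706, 159 to 557 higher and 35 to 149 lower. Without the replicate block for the paired families there were 341 calls (261 and 80), 295 of them shared, and 2 of the named genes lost theirs. RLE scaling gave 401, a stricter filter 401 and no filter 314. The mitochondrial share changed by -0.74 without the 3 libraries and by -1.06 without those of family 2 on the log2 scale, both with the smallest p that 5 families allow, 0.0625. The cause of these shifts was not tested. Genes without overlap numbered 619, and 564 to 885 under the alternatives, 1 of which (no TMM) was chosen after seeing the data. At these depths genes under about 1 CPM have few counts, and an absent call there does not show equal levels.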
